A study of Rattus norvegicus with 48 samples.

Results

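Hspa1b, Dnajb5 and melusin (gene Itgb1bp2) are 3 chaperone genes whose mRNA was measured in the plantaris and soleus of rats with a cast hindlimb and of rats without one. They were picked by identifier, ENSRNOG00000050647 for Hspa1b, ENSRNOG00000000130 for Dnajb5 and ENSRNOG00000003596 for Itgb1bp2, out of 31998 genes in the deposited count table, and all 3 were among the 16960 genes with enough counts to be tested. They were picked because of their response to immobilization in these same libraries, so the differences between immobilized and control muscle are given below as a description, with their errors and without a test.

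The inducible heat shock protein Hspa1b is a cytosolic member of the Hsp70 family. It folds and refolds client proteins in cycles of ATP binding and hydrolysis, and its gene is a classical target of the heat shock factor HSF1. Dnajb5 belongs to the Hsp40 or J-domain family, the co-chaperones that deliver clients to Hsp70 and start its ATP hydrolysis, and it is known to bind the histone deacetylase Hdac4 in cardiac muscle cells. Melusin is a protein of striated muscle that binds the cytoplasmic tail of integrin beta 1 at the costamere, the structure that links the outer Z-discs to the membrane. It also has chaperone activity and binds Hsp90, and it is known for its part in the response of the heart to mechanical load.

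The rats were females aged 14 months from generation 19 of a selective breeding program from a genetically heterogeneous stock, in a line of low responders (LRT) and a line of high responders (HRT) to endurance training. In each line 6 rats had 1 hindlimb held in plantar-flexion by a cast for 3 d (HI), and 6 other rats of the line had no cast (CTRL). With plantaris and soleus from every rat this gave 48 libraries in 8 groups of 6. What all groups share is the treadmill training by which the lines are phenotyped, given early in life, the isoflurane anaesthesia at collection, and, by the study's methods, a puromycin injection before the muscles were taken, stated there for immobilized rats, with CTRL muscles removed by the same procedures. The CTRL muscles came from separate animals and not from the opposite limb. Line and immobilization are thus compared between animals, of 1 sex and age.

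The totals per library were 26.8 to 36.4 M estimated counts (M, mega), and the RNA integrity number (RIN) was 7.8 to 8.6. The labelled muscles were checked against fibre markers. The summed level of 7 fast-fibre genes with an identifier, of 9 listed (among them Mylpf, Atp2a1, Pvalb and Casq1) was 21133 to 34259 CPM (counts scaled to the size of the library) in the CTRL plantaris libraries and 1944 to 4999 CPM in the CTRL soleus libraries. The summed level of 4 slow-fibre genes, of 6 listed (Pln, Casq2, Fabp3 and Car3) was 2206 to 4561 CPM in CTRL plantaris and 11579 to 23301 CPM in CTRL soleus. The groups did not overlap for either list, and no gene of the lists was at 0 in all libraries of a group. These are whole-muscle samples, so fewer cells of a type and less RNA per cell cannot be told apart.

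The promoters of the members are shown because the levels of the members varied together in soleus and Hspa1b and melusin did not in plantaris, as described below. The plantaris pattern rests on few libraries, and a part of these sequences in it was not tested. The tables of reference sequences, taken from RefSeq on build GRCr8, were matched by symbol and held 2 of the 3 members and 8 of 11 other chaperone genes. Hspa1b is named only. Each sequence runs from 250 bases before to 50 after the first annotated start, 5′ to 3′ on the strand of the gene. The promoter of Dnajb5 lies at chr5:61972456-61972755 on the plus strand, that of Itgb1bp2 at chrX:70612271-70612570 on the plus strand and that of Hsph1, the gene of the large Hsp110 chaperone, at chr12:10427118-10427417 on the plus strand. Hsph1 is shown for comparison, as the one promoter of the 8 other chaperones with a heat shock element of 3 units. Capitals mark the CCAAT boxes (CCAAT, or ATTGG on the other strand) in Dnajb5, the CCAAT boxes and the E-box (CANNTG) in Itgb1bp2, and the 3-unit heat shock element in Hsph1.

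Dnajb5: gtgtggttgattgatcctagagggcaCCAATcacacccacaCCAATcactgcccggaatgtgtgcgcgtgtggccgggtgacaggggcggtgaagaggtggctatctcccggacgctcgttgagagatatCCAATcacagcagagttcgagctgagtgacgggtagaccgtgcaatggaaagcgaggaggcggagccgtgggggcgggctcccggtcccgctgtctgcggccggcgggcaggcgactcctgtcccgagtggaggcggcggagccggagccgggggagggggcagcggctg

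Itgb1bp2: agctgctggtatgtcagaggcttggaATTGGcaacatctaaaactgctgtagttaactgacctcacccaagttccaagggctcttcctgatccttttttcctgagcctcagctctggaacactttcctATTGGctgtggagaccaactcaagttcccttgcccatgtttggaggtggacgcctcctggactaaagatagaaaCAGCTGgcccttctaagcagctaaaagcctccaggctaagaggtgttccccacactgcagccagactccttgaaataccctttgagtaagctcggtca

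Hsph1: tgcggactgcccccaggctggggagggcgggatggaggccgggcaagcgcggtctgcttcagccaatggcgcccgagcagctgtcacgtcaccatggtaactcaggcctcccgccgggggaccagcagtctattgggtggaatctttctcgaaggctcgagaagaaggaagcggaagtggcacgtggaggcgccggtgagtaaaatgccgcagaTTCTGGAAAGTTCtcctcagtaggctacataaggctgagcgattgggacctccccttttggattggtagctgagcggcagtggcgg

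The Dnajb5 promoter held 3 CCAAT boxes, at -224, -209 and -120 from the start. The Itgb1bp2 promoter held 2, both on the other strand, at -224 and -122, and an E-box, the motif of the MyoD family, at -48. A CCAAT box was found in 37.5% and an E-box in 72.1% of all 33469 promoters of this length, so neither sets these genes apart. A 3-unit heat shock element (GAANNTTCNNGAA or TTCNNGAANNTTC, searched on both strands) was in 0.798% of all promoters and a 2-unit one (GAANNTTC or TTCNNGAA, which the 3-unit element also contains) in 15.9%. The letters of both were absent from the Dnajb5 and Itgb1bp2 windows, while a 2-unit element stood in 4 of the 8 other chaperone promoters. A TATA box (TATAAA, in 14.2% of promoters), a CArG box (1.64%) and a MEF2 element (0.565%) were also not found in either window. A match or its lack describes these windows only.

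Hspa1b, the Hsp70 gene, stood highest in the soleus of rats without a cast and at a small part of that level in the immobilized soleus, while plantaris libraries spread in both directions. In LRT soleus the 6 CTRL libraries had 47.8 CPM at the lowest, a median of 76.1 and 99.0 at the highest, and the 6 HI libraries had 3.40, 6.80 and 33.1 CPM. In HRT soleus CTRL had 48.2, 66.2 and 80.5 CPM, and HI had 2.99, 8.85 and 17.5 CPM. Every immobilized soleus library lay below every CTRL soleus library of its line. Groups that do not overlap in this direction were found for 2.09% of tested genes in LRT soleus and 2.31% in HRT soleus, and since the gene was picked on these contrasts nothing is read from that. The log2 fold change of HI against CTRL was -2.64 in LRT soleus (standard error 0.62, 95% interval -3.88 to -1.40) and -2.56 in HRT soleus (standard error 0.62, -3.81 to -1.31), which is 6.22-fold and 5.90-fold lower.

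In LRT plantaris Hspa1b was at 15.3, 19.0 and 21.7 CPM in CTRL and at 6.17, 13.5 and 28.6 CPM in HI. Of the 6 HI libraries 3 lay below all CTRL libraries and 2, replicates 1 and 3, above all of them. In HRT plantaris CTRL ran from 9.41 CPM over a median of 19.5 to 60.2, and HI from 4.23 over 6.76 to 105.1 CPM. There 5 of the 6 HI libraries were below all CTRL libraries, and replicate 4 was above all of them. The fold changes carry this spread, with -0.33 in LRT plantaris (standard error 0.59, 95% interval -1.51 to 0.86) and -0.36 in HRT plantaris (standard error 0.60, -1.57 to 0.86) on the log2 scale. A single library decided the HRT value. Without HI replicate 4 the HRT plantaris fold change was -2.04 (standard error 0.50), and without CTRL replicate 6, the library at 60.2 CPM, it was 0.10. Over 10 other settings of the fit it lay between -1.12 and -0.13.

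Dnajb5, the J-domain co-chaperone, was lower in HI in both muscles, with a smaller difference than Hspa1b in soleus. In plantaris the order of the genes depends on single Hspa1b libraries, as given above. In LRT soleus CTRL had 123 CPM at the lowest, a median of 142.7 and 165 at the highest, and HI had 45.9, 54.5 and 162 CPM. In HRT soleus CTRL had 103, 154 and 188 CPM and HI had 48.4, 69.6 and 99.8 CPM. The HRT soleus groups did not overlap, a pattern found in this direction in 2.31% of tested genes. Dnajb5 was picked on these contrasts, so nothing is read from that. In LRT soleus 5 of 6 HI libraries lay below all CTRL libraries, with replicate 5, at 162 CPM, inside the CTRL range. In plantaris the CTRL libraries had 111, 129 and 142 CPM in LRT and 98.2, 132 and 146 CPM in HRT. The HI plantaris libraries had 65.3, 75.5 and 154 CPM in LRT and 67.9, 80.5 and 114 CPM in HRT. Again 5 of 6 HI libraries were below all CTRL libraries in each line, and the exceptions were LRT replicate 5, above all of CTRL, and HRT replicate 3.

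The log2 fold changes of Dnajb5 were -0.61 in LRT plantaris (95% interval -1.05 to -0.17), -0.68 in HRT plantaris (-1.13 to -0.24), -0.92 in LRT soleus (-1.36 to -0.49) and -1.02 in HRT soleus (-1.47 to -0.57), each with a standard error of 0.22. These are levels 1.52-fold to 2.03-fold lower. Replicate 5 of LRT HI moved both LRT values. Without its plantaris library the LRT plantaris value was -0.88, and without its soleus library the LRT soleus value was -1.29. Dnajb5 in soleus sits on both sides of the study's fold threshold of 1 on the log2 scale, just past it in HRT and just inside it in LRT.

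Melusin, the integrin-bound co-chaperone, was lower in HI in both muscles and both lines. In LRT plantaris CTRL had 52.0 CPM at the lowest, a median of 61.5 and 71.8 at the highest, and HI had 3.19, 17.6 and 32.2 CPM. In HRT plantaris CTRL had 49.3, 52.7 and 58.8 CPM and HI had 10.9, 26.0 and 36.5 CPM. In both lines each immobilized plantaris library was below each CTRL library, a pattern shared in this direction by 5.74% of tested genes in LRT plantaris and 5.4% in HRT plantaris. In LRT soleus CTRL had 101, 118 and 147 CPM and HI had 20.4, 49.0 and 103 CPM. In HRT soleus CTRL had 87.2, 122 and 141 CPM and HI had 26.0, 50.2 and 63.5 CPM. The HRT soleus groups did not overlap (2.31% of tested genes in this direction), and in LRT soleus replicate 5 of HI, at 103 CPM, was the 1 library inside the CTRL range. Melusin was picked on these contrasts, so nothing is read from these patterns.

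The log2 fold change of melusin was -1.88 in LRT plantaris (standard error 0.38, 95% interval -2.65 to -1.11), -1.16 in HRT plantaris (0.37, -1.91 to -0.41), -1.18 in LRT soleus (0.37, -1.92 to -0.44) and -1.26 in HRT soleus (0.37, -2.02 to -0.51). It was 3.69-fold lower in LRT plantaris and 2.24-fold to 2.40-fold lower in the other 3 comparisons. The lowest level belongs to replicates 1 and 3 of LRT HI plantaris, with 3.30 and 3.19 CPM, the same libraries in which Hspa1b was above all of CTRL.

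**Figure D1:**
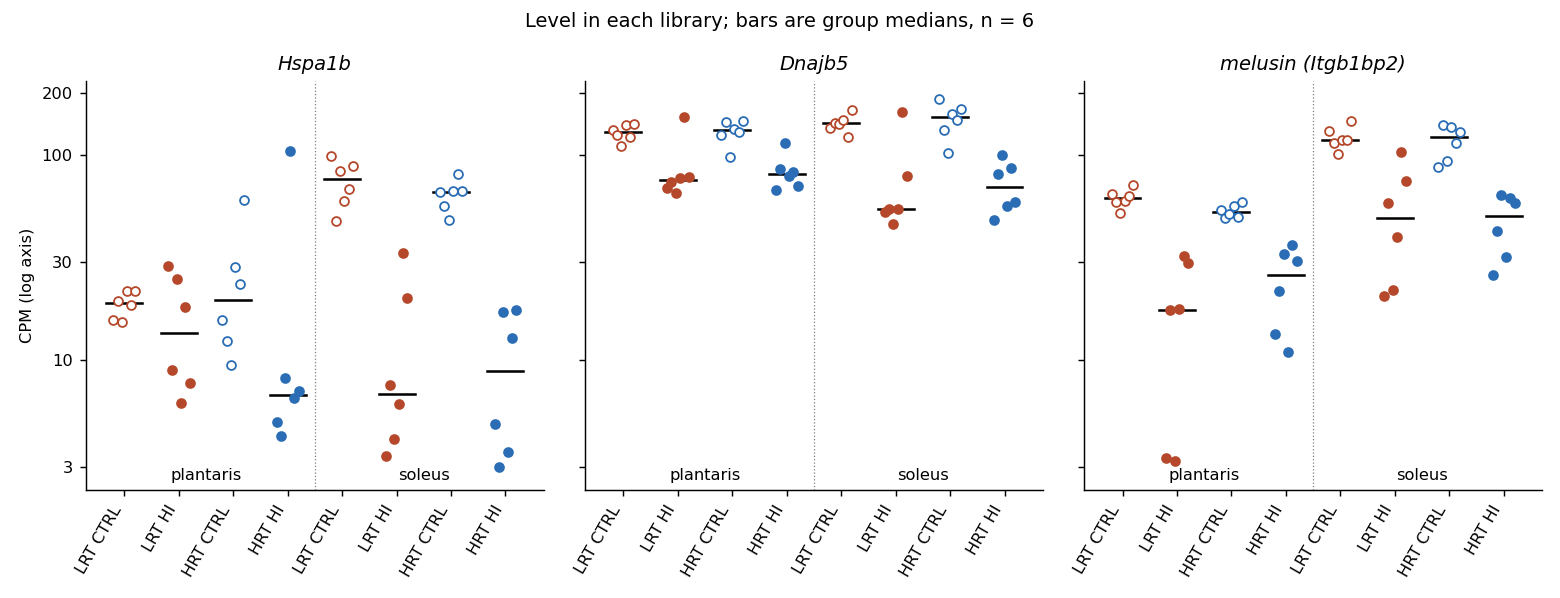
Level of each gene in every library (CPM, log axis) by muscle, line and treatment, with open points for CTRL, filled points for HI and a bar at each group median (6 libraries a group). All 12 immobilized soleus libraries lie below the CTRL soleus libraries of their line for Hspa1b, while 1 HRT HI plantaris library stands at 105.1 CPM.

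By the rule of an absolute log2 fold change over 1 with an adjusted p under 0.05, Hspa1b passed in 2 of the 4 comparisons (both in soleus), Dnajb5 in 1 (HRT soleus) and melusin in 4. The same rule was passed by 5.18% of tested genes in LRT plantaris, 1.9% in HRT plantaris, 2.41% in LRT soleus and 2.93% in HRT soleus, and because it chose the genes nothing is read from those counts. The 4 comparisons use 4 separate sets of CTRL libraries, but plantaris and soleus of a line come from the same 6 HI and 6 CTRL rats, so they are not independent. Over 10 other settings of the fit, melusin passed the rule in 8 in HRT plantaris and in 10 in each of the other comparisons. Hspa1b passed in 9 in each line in soleus, and Dnajb5 in 8 in HRT soleus and 3 in LRT soleus.

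Ordered by mean level, Hspa1b was highest in soleus LRT CTRL (74.6 ± 19.4 CPM, SD, n = 6) and soleus HRT CTRL (64.1 ± 11.0), followed at a distance by the 4 plantaris groups (24.9 ± 18.7 in HRT CTRL, 22.7 ± 40.4 in HRT HI, 18.7 ± 2.80 in LRT CTRL and 15.7 ± 9.57 in LRT HI), and lowest in soleus LRT HI (12.4 ± 11.8) and soleus HRT HI (9.82 ± 6.81). The place of plantaris HRT HI in this order is set by replicate 4: without it the mean was 6.17 ± 1.56 CPM (n = 5), and by medians that group is the lowest of the 8, at 6.76 CPM beside 6.80 in soleus LRT HI. Each neighbour among the lower 6 groups lay within 1 SD of the next, taking the larger SD of the pair. For Dnajb5 the 4 CTRL groups came first, from 150 ± 29.6 CPM in soleus HRT to 129 ± 12.1 in plantaris LRT, then the 4 HI groups from 86.2 ± 33.6 in plantaris LRT to 71.7 ± 20.3 in soleus HRT. The only step in that order wider than 1 SD of both neighbours was the one from CTRL to HI. Melusin was highest in the CTRL soleus groups (122 ± 15.5 in LRT and 117 ± 22.7 in HRT), then in plantaris LRT CTRL (61.8 ± 6.57). The immobilized soleus groups (53.1 ± 32.4 in LRT and 47.3 ± 16.2 in HRT) stood next to plantaris HRT CTRL (53.3 ± 3.72), and the immobilized plantaris groups came last (24.3 ± 10.6 in HRT and 17.2 ± 12.4 in LRT). The levels are not scaled to transcript length, so they are not compared between genes.

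The spread between rats also differed between the genes. The biological coefficient of variation of Hspa1b was 0.677, higher than in 97.9% of tested genes, that of melusin was 0.433 (93.4%) and that of Dnajb5 was 0.259 (76.1%). The SD of the log2 level of Hspa1b was 0.22 to 0.96 in the CTRL groups and 0.94 to 1.71 in the HI groups. For melusin the SDs were 0.10 to 0.29 in CTRL and 0.54 to 1.50 in HI. For Dnajb5 they were 0.14 to 0.30 in CTRL and 0.27 to 0.67 in HI. In each muscle and line the SD was larger in HI than in CTRL for all 3 genes. The ranges overlap for Hspa1b, with 0.96 in plantaris HRT CTRL, and for Dnajb5, with 0.30 in soleus HRT CTRL. In plantaris this leans on single libraries. Without HRT HI replicate 4, Hspa1b ran from 4.23 to 8.11 CPM (CTRL 9.41 to 60.2). Without LRT HI replicate 5, Dnajb5 ran from 65.3 to 77.9 CPM (CTRL 111 to 142). Without HRT HI replicate 3 it ran from 67.9 to 85.1 CPM (CTRL 98.2 to 146). Each of these HI ranges is narrower than that of CTRL.

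The muscles were also compared among CTRL rats. The same CTRL libraries entered the comparisons that chose the genes, so these differences too are given without a test. Hspa1b was lower in plantaris than in soleus by a log2 difference of -2.28 in LRT (standard error 0.63, 95% interval -3.55 to -1.0) and of -1.52 in HRT (standard error 0.60, -2.73 to -0.31). The plantaris and soleus libraries did not overlap in LRT, a pattern found in this direction in 10.7% of tested genes, and in HRT 5 of 6 plantaris libraries were below all soleus libraries. Melusin was lower in plantaris too, by -1.04 in LRT (standard error 0.38, 95% interval -1.80 to -0.28) and -1.17 in HRT (standard error 0.37, -1.91 to -0.42), and its CTRL libraries did not overlap between the muscles in either line (11.0% of tested genes in HRT). For Dnajb5 the difference was -0.19 in LRT (95% interval -0.64 to 0.25) and -0.22 in HRT (-0.66 to 0.21), with overlapping libraries. Leaving out 1 library at a time gave -1.88 to -1.34 for Hspa1b in HRT and -1.05 to -0.95 for melusin in LRT.

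The lines were compared in each muscle and treatment, again without a test, since the same libraries chose the genes. The largest of the 12 differences was that of melusin in immobilized plantaris, -0.52 for LRT minus HRT (95% interval -1.26 to 0.23). For Hspa1b in immobilized plantaris it was -0.37 (-1.56 to 0.83), and without HRT HI replicate 4 it was 1.36 (0.36 to 2.35), so that value is set by 1 library. For Dnajb5 the intervals were narrow, from -0.45 to 0.42 in CTRL plantaris and from -0.39 to 0.48 in HI soleus. For Hspa1b they were wide, from -1.58 to 0.78 in CTRL plantaris and from -0.92 to 1.48 in HI soleus, so a line difference of 2-fold lies within them.

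The difference between the lines in the response to immobilization (DELTA, LRT minus HRT) was 0.03 for Hspa1b in plantaris (95% interval -1.64 to 1.70) and -0.08 in soleus (-1.76 to 1.61). For Dnajb5 it was 0.08 (-0.54 to 0.69) and 0.10 (-0.52 to 0.71). For melusin it was -0.72 in plantaris (-1.76 to 0.32) and 0.08 in soleus (-0.95 to 1.12). Without HRT HI plantaris replicate 4 the value of Hspa1b in plantaris was 1.76 (0.43 to 3.09).

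The difference between the muscles in the response (plantaris minus soleus) was largest for Hspa1b, 2.31 in LRT (95% interval 0.63 to 4.0) and 2.20 in HRT (0.45 to 3.96), and the HRT value was 0.60 without plantaris HI replicate 4. Dnajb5 had 0.32 in LRT (-0.30 to 0.93) and 0.34 in HRT (-0.31 to 0.98). Melusin had -0.70 in LRT (-1.75 to 0.35) and 0.10 in HRT (-0.96 to 1.16). These responses chose the genes, so nothing is read from the intervals.

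The 11 other chaperone genes were taken as a list from the study's tables of changed genes, so their counts in HI against CTRL are not independent evidence of a direction. In LRT soleus 8 of 11 were lower and 1 higher at an adjusted p under 0.05, and in HRT soleus 6 of 11 were lower and 0 higher. Over all tested genes 6.58% were lower and 7.36% higher in LRT soleus, and 8.23% and 7.95% in HRT soleus. The median log2 fold change of the list was -0.99 in LRT soleus and -0.91 in HRT soleus, where the median of all tested genes was 0.01 in both. Hsph1, the Hsp110 partner of Hsp70, fell by 0.99 in LRT (adjusted p = 0.00384, edgeR) and by 1.03 in HRT (adjusted p = 0.00278, edgeR). Hspa5, the Hsp70 of the endoplasmic reticulum, fell by 1.36 and 0.95 (adjusted p = 0.000357 and 0.00895, edgeR). The LRT value leans on CTRL replicate 3, at 753 CPM where the other 5 CTRL libraries had 155 to 233, and without it Hspa5 fell by 0.71 (adjusted p = 0.00486, edgeR).

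Of the other members of the list, Hspa2, an Hsp70 form best known from testis, fell by 1.00 in LRT soleus and 1.25 in HRT soleus. The small heat shock protein Hspb6 fell by 0.97 and 1.13, and the J-domain genes Dnaja4 and Dnajb4 fell by 0.94 and 1.18 in LRT and by 0.93 and 0.79 in HRT. The adjusted p of these 4 genes was at most 0.0232 in each line by edgeR. Without HRT CTRL replicate 1 the HRT value of Hspb6 was -0.74 (adjusted p = 0.0533, edgeR). Cryab, the small heat shock protein that protects desmin, fell by 1.19 in LRT soleus (adjusted p = 0.0304, edgeR) and had -0.79 in HRT (adjusted p = 0.152, edgeR). Hspa1l fell by 1.00 in LRT (adjusted p = 0.0293, edgeR) and had -0.82 in HRT (adjusted p = 0.0718, edgeR). It belongs to the same Hsp70 family as Hspa1b and, like the near-identical copy Hspa1a, may share reads with it, so the levels of Hspa1b and Hspa1l are uncertain to the extent that the counting split such reads. Hspb1, whose values were -0.36 and -0.91, and LOC56764 did not pass. Dnajc6, the J-domain protein auxilin that uncoats clathrin vesicles, was the 1 gene that rose, by 0.93 in LRT soleus (adjusted p = 0.0356, edgeR), from a low level of 2.74 CPM on average. With 1 of the 12 libraries left out at a time, Hsph1 and Hspa5 passed throughout in both lines, as did Dnajb4 in LRT and Hspa2 in HRT. The other calls in soleus were each lost for 1 to 7 libraries, most often that of Hspa1l in LRT.

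In plantaris few of these genes passed. In LRT plantaris 1 of 11 was higher (Dnajc6, 1.52, adjusted p = 0.0136, edgeR, and 1.19, adjusted p = 0.0741, without HI replicate 3) and 0 lower, beside 15.1% and 13.6% of all tested genes. In HRT plantaris 0 were higher and 1 lower (Hspa1l, -1.43, adjusted p = 0.00499, edgeR), beside 5.11% and 5.85% of tested genes. The list's medians were -0.15 and -0.33, and the medians of all tested genes were 0.01 and 0.02. The response of plantaris minus soleus was tested without pairing the muscles. It passed for 1 of 11 genes in LRT (Hspa5, 1.28, adjusted p = 0.0427, edgeR, and 0.61, adjusted p = 0.155, without LRT CTRL soleus replicate 3) and for 0 of 11 in HRT. Over all 16960 tested genes it passed for 370 in LRT and 16 in HRT. It was above 0 in 10 of 11 and 9 of 11 listed genes, with medians of 0.72 and 0.59, beside -0.01 and 0.00 over all tested genes. Limma-voom without pairs called Hsph1 (1.21, adjusted p = 0.0430) and not Hspa5 (1.00, adjusted p = 0.0900) in LRT. With same-numbered libraries paired as 1 rat it called both (adjusted p = 0.0111 and 0.0252), and 0 in HRT either way, while the number of all tested genes called rose from 330 in limma-voom without pairs to 1185 in LRT and from 21 to 150 in HRT.

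**Figure D2:**
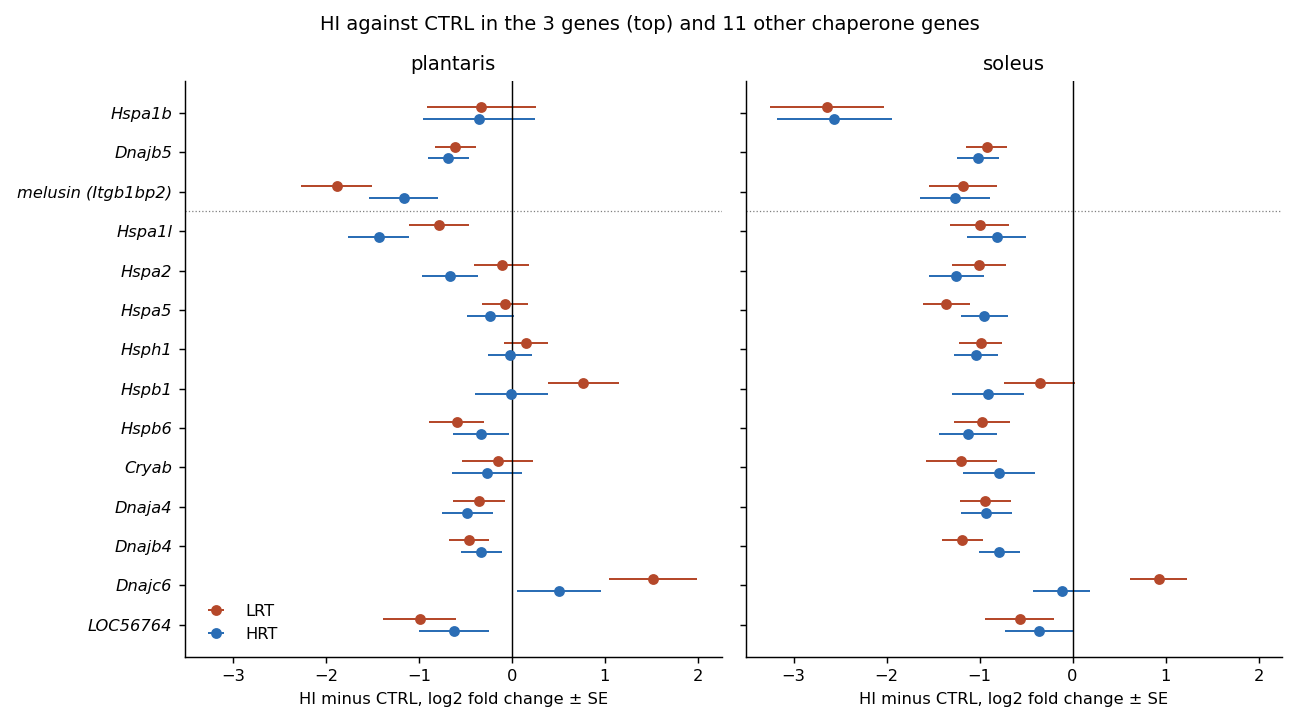
Log2 fold change of HI against CTRL with its standard error, for the 3 members (top) and 11 other chaperone genes, in plantaris and soleus, LRT in red and HRT in blue (6 HI and 6 CTRL libraries each). In soleus the points lie left of 0 for all genes shown in HRT and for all but Dnajc6 in LRT, with Hspa1b farthest at -2.64 and -2.56.

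In CTRL rats the difference of plantaris minus soleus was below 0 for 11 of 11 other chaperones in each line, though not all passed. The same CTRL libraries entered the tables from which the list was drawn, so these counts are no independent evidence either. In LRT 6 of 11 were lower and 0 higher, and in HRT 8 of 11 were lower and 0 higher, where 15.6% and 19.9% of all tested genes were lower. The median log2 difference was -1.15 in LRT and -1.02 in HRT, and that of all tested genes was 0.00 and -0.03. Cryab had -2.27 and -2.43, Hspb6 -1.73 and -2.02, Dnaja4 -1.73 and -1.52, and Hspa2 -1.74 and -1.70, in LRT and HRT in turn, with adjusted p values of at most 2.55e-05 by edgeR. Hsph1 and Hspb1 passed in HRT alone, a difference between the lines that was not tested, and lost the call for 6 and 4 of 12 left-out libraries. Hspa1l, Hspa5 and LOC56764 did not pass in either line. Limma-voom called 6 and 8 of 11 as well, and 7 and 8 with same-numbered libraries paired, with LOC56764 added in LRT. Over all 16960 tested genes the number called in either direction rose with the pairs from 5384 to 6444 in LRT and from 6464 to 7465 in HRT.

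Melusin sits at the costamere, and 14 genes of the Z-disc and costamere were taken from the same tables, so their counts too are not independent evidence of a direction. In LRT plantaris 7 of 14 were lower in HI, in HRT plantaris 0, in LRT soleus 5 and in HRT soleus 4, beside 13.6%, 5.85%, 6.58% and 8.23% of all tested genes, and 0 were higher in any of the 4. The medians were -0.48, -0.44, -0.86 and -0.69, and those of all tested genes 0.01 to 0.02. In LRT plantaris the thin-filament nucleator Lmod3 fell by 1.56 (adjusted p = 0.000458, edgeR), the Z-disc protein Myoz3 fell by 1.39 (adjusted p = 0.00139, edgeR), Ldb3 fell by 1.26 (adjusted p = 0.00306, edgeR) and Ky, the kyphoscoliosis peptidase, fell by 1.56 (adjusted p = 0.0107, edgeR). In LRT soleus Fhl2 fell by 1.14 (adjusted p = 0.0184, edgeR) and Myoz3 fell by 1.12 (adjusted p = 0.0166, edgeR), calls lost for 5 and 2 of 12 left-out libraries. Xirp1 (-1.40, adjusted p = 0.0676) and Ankrd2 (-1.35, adjusted p = 0.242) had larger values that did not pass in the edgeR test.

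Immediate-early genes, which report recent contraction or stress, were the other list of 14, with the same limit. In LRT plantaris 8 were higher and 0 lower, and in HRT plantaris 4 were higher and 0 lower, where 15.1% and 5.11% of all tested genes were higher. In LRT soleus 0 were higher and 6 lower, and in HRT soleus 1 was higher and 4 lower, where 6.58% and 8.23% of all tested genes were lower. The medians were 1.20, 0.44, -0.94 and -0.35. In LRT plantaris Fosb rose by 4.93, Myc by 2.11, Junb by 2.03 and Egr1 by 1.72 (adjusted p = 4.88e-06, 0.000342, 4.48e-05 and 0.000801, edgeR). In LRT soleus the nuclear receptors Nr4a3, Nr4a2 and Nr4a1 fell by 3.13, 2.46 and 1.67 and the stress factor Atf3 fell by 2.63 (adjusted p = 0.00238, 0.00103, 0.00920 and 0.000615, edgeR). The difference between the muscles passed for 7 of 14 in LRT, all of them higher in plantaris, and for 0 of 14 in HRT, where 1.19% and 0.0413% of all tested genes were higher. Each of those 7 calls was lost without at least 1 library, for 1 to 19 of 24 left out. Limma-voom called 1 of the 14 in LRT without pairs and 8 with same-numbered libraries paired, and 0 in HRT either way. Over all 16960 tested genes the number called rose with the pairs from 330 to 1185 in LRT and from 21 to 150 in HRT.

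Hdac4, the partner of Dnajb5, moved opposite to it between HI and CTRL. It rose by 2.83 in LRT plantaris, 2.29 in HRT plantaris, 2.44 in LRT soleus and 2.02 in HRT soleus (adjusted p = 1.55e-05, 0.00121, 0.000313 and 0.00202, edgeR). The study also reports Hdac4 as raised in both muscles and lines. Dnajb5 was picked on these contrasts, so the opposite directions are no independent evidence. Across the 48 libraries, after the group means were removed, the correlation of Hdac4 with Dnajb5 was -0.41 (-0.48 among HI and 0.06 among CTRL) and with melusin -0.74 (-0.77 and -0.31), as descriptions over libraries that share groups and rats.

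The libraries of a group differed widely, and the 3 genes were compared in how they varied. Levels were taken as log2 CPM minus the mean of the group, so that neither muscle, line nor treatment enters. Over 48 libraries Dnajb5 and melusin went together (r = 0.59, rho = 0.51, r = 0.47 without the 2 libraries farthest out), with r = 0.64 among HI (n = 24) and 0.24 among CTRL (n = 24, and 0.02 without the 2 farthest), and Hspa1b and Dnajb5 less so (r = 0.41, rho = 0.44, and 0.39). Between Hspa1b and melusin r was 0.02 over all libraries (rho = 0.23), but the muscles differed. In the 24 soleus libraries r was 0.83 (rho = 0.80, and 0.83 without the 2 farthest), and in the 24 plantaris libraries it was -0.44 (rho = -0.24, and -0.44). The correlation of Hspa1b with Dnajb5 was 0.68 in soleus and 0.13 in plantaris, and that of Dnajb5 with melusin was 0.72 and 0.55. These are descriptions, and libraries of 1 rat enter both muscles.

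**Figure D3:**
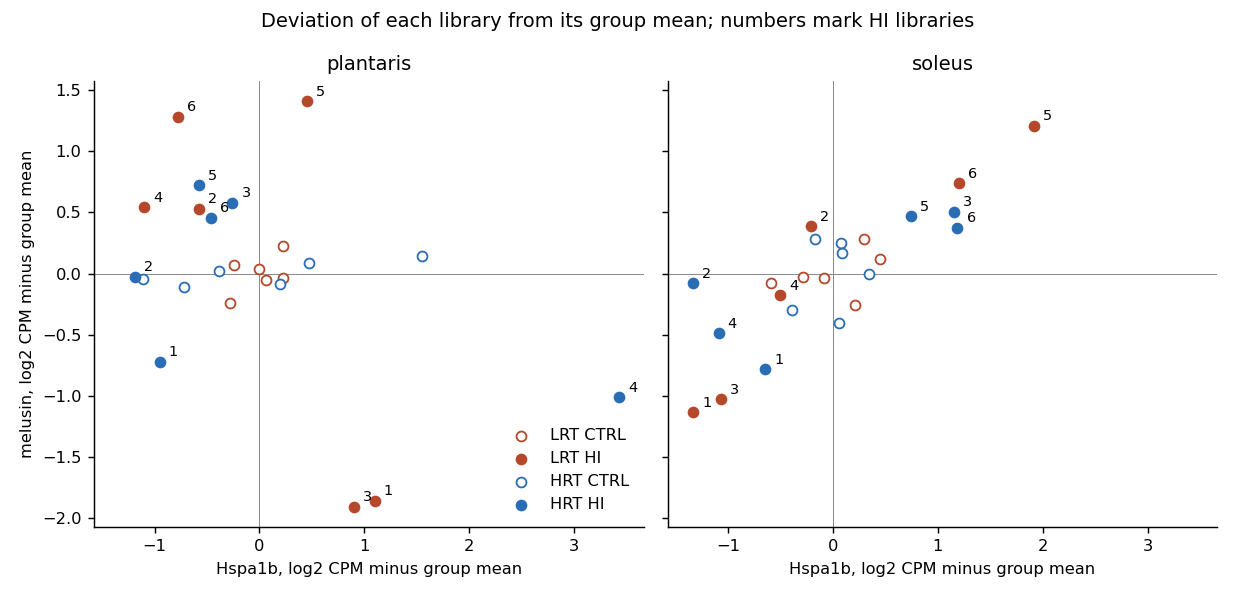
Deviation of melusin from its group mean against that of Hspa1b (log2 CPM) in the 24 plantaris and 24 soleus libraries, colours for the line, open points for CTRL and filled points for HI. In soleus the points rise together (r = 0.83), and in plantaris 3 HI libraries lie far down on melusin with Hspa1b above its group mean.

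The plantaris pattern rests on 3 libraries, chosen after their values were seen. Without them r between Hspa1b and melusin was 0.44 in plantaris (rho = 0.61, n = 21). Between Hspa1b and Dnajb5 it was 0.61 (rho = 0.57), and between Dnajb5 and melusin 0.55 (rho = 0.49). In replicates 1 and 3 of LRT HI, Hspa1b was at 28.6 and 24.9 CPM and melusin at 3.30 and 3.19, which is 153% and 133% of the CTRL mean for Hspa1b and 5.33% and 5.16% for melusin. In replicate 4 of HRT HI, Hspa1b was at 422% and melusin at 20.5% of the CTRL mean. The soleus libraries with the same numbers were low in both genes. There Hspa1b stood at 4.56% and 5.50% of the CTRL mean in replicates 1 and 3 of LRT HI and at 5.56% in replicate 4 of HRT HI, and melusin at 16.8%, 18.1% and 27.2%.

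These 3 plantaris libraries also stood apart in the sums of a list of myeloid genes and of the fast-fibre genes. The summed level of 7 myeloid genes (Gpnmb, Clec7a, Lilrb4, Lilrb3, S100a9, Ccl2 and Ccl7) was 151 and 170 CPM in LRT HI replicates 1 and 3 and 156 CPM in HRT HI replicate 4. In all plantaris it ran from 9.43 to 12.4 CPM in LRT CTRL, 18.3 to 170 in LRT HI, 9.07 to 15.4 in HRT CTRL and 13.3 to 156 in HRT HI. In soleus it ran from 13.7 to 37.4 CPM in LRT CTRL, 16.6 to 37.0 in LRT HI, 14.1 to 27.1 in HRT CTRL and 19.8 to 52.4 in HRT HI, so the soleus groups overlapped. The fast-fibre sum was 7301, 8202 and 9794 CPM in the 3 libraries, where the other plantaris HI libraries reached at most 21262 in LRT and ran from 15541 to 19683 in HRT. Within the plantaris groups the myeloid sum had r = 0.70 with Hspa1b, -0.35 with Dnajb5 and -0.75 with melusin (n = 24), and in soleus 0.14, -0.15 and -0.12 (n = 24). Which cells made the transcripts of the myeloid list, and their part in the plantaris values, was not tested.

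A sum of general muscle genes moved with melusin, while the fast-fibre and slow-fibre sums did so only in part. The summed level of 8 muscle genes (Myod1, Myog, Myf6, Musk, Trim72, Srl, Klhl31 and Asb5) ran from 2635 to 3017 CPM in plantaris LRT CTRL and from 1022 to 2329 in LRT HI, and from 2492 to 2885 in plantaris HRT CTRL and 1448 to 2414 in HRT HI. In soleus it ran from 2480 to 2793 CPM in LRT CTRL, 1400 to 2611 in LRT HI, 2247 to 2678 in HRT CTRL and 1555 to 2264 in HRT HI. Its correlation within groups with melusin was 0.95 in plantaris and 0.93 in soleus (n = 24 each). With Dnajb5 it was 0.69 and 0.76, and with Hspa1b -0.35 in plantaris and 0.82 in soleus. The summed level of these genes moved between the treatments with melusin, and its part in the lower melusin level was not tested. The slow-fibre sum was lower in immobilized soleus as well, with medians of 21110 CPM in LRT CTRL and 7344 in LRT HI (4999 to 16110), and of 19469 in HRT CTRL and 11822 in HRT HI (4685 to 18571). Within groups it had r = 0.72 with melusin, 0.35 with Dnajb5 and 0.05 with Hspa1b (n = 48). In plantaris the slow-fibre medians were 3462 CPM in LRT CTRL and 2587 in LRT HI, and 2998 and 2872 in HRT. The fast-fibre medians fell from 31613 to 15030 CPM in LRT plantaris, 23132 to 17369 in HRT plantaris and 4282 to 3167 in LRT soleus. In HRT soleus they were 2258 CPM in CTRL and 2550 in HI. The fast-fibre sum had r = 0.92 with melusin in plantaris and 0.49 in soleus (n = 24 each). The summed level of 7 endothelial genes was 46.4 to 112 CPM in LRT CTRL soleus and 34.5 to 44.8 in LRT HI, and 54.2 to 65.8 in HRT CTRL and 36.5 to 48.1 in HRT HI, with no overlap in either line. Its correlation within groups was -0.19 with melusin, -0.33 with Dnajb5 and -0.26 with Hspa1b (n = 48). The sum of 3 smooth muscle genes had r = 0.71 with melusin, 0.17 with Dnajb5 and -0.46 with Hspa1b, and that of 5 nerve and synapse genes -0.59, -0.47 and -0.35. The smooth muscle sum was 65.3 to 93.5 CPM in LRT CTRL plantaris and 11.5 to 71.0 in LRT HI. The nerve and synapse sum was 7.04 to 10.5 CPM in LRT CTRL soleus and 9.03 to 44.4 in LRT HI. These ranges cover LRT in a single muscle each, while the correlations run over 48 libraries. For red cells, fibroblasts and adipocytes no correlation with a member was beyond 0.36 in size. The part of these cells in the values was not tested.

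Hspa1b in replicate 4 of HRT HI plantaris did not stand alone among the chaperones. In that library Hsph1 was at 135 CPM (46.3 to 69.4 in the other 5), Hspb1 at 419 (63.3 to 163), Cryab at 1552 (427 to 1122) and Dnajb4 at 71.4 (32.4 to 51.1). Of the 11 other chaperones it was the highest of the 6 in 5 and the lowest in 1, Dnaja4. Its RIN was 8.5 and its total 29.1 M counts, both within the range of the others. Replicate 5 of LRT HI, in which Dnajb5 was high in both muscles, was the highest of 6 in 7 of the 11 chaperones in plantaris and in 6 of 11 in soleus. CTRL plantaris replicate 6 of HRT, with Hspa1b at 60.2 CPM, was the highest of 6 in 4 of 11. The same count over all tested genes was not made, so nothing particular to chaperones is read from these counts. HRT HI plantaris replicate 4 also stood apart in the myeloid and fast-fibre sums given above. Not every library examined had many chaperones at their highest, and only those named here were examined. LRT HI plantaris replicate 1 was the highest in 1 and the lowest in 3 of the 11. In plantaris LRT HI replicate 3 and HRT HI replicate 3 were each the highest in 2 and the lowest in 1. Still, Hsph1 was highest in LRT HI plantaris replicates 3 and 1, at 115 and 95.4 CPM. Hspb1 stood there at 441 and 427 CPM, below replicate 5 alone, at 550.

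The labels number the libraries of each group, and they do not state that a number marks the same rat in both muscles. Over the 24 pairs of same-numbered libraries the deviations of melusin had r = 0.92 (rho = 0.82, 0.87 without the 2 pairs farthest out) and those of Dnajb5 r = 0.88 (rho = 0.76, and 0.72). For Hspa1b r was -0.21 (rho = -0.01, and -0.02). Among the 12 HI pairs alone r was 0.95 for melusin, 0.94 for Dnajb5 and -0.27 for Hspa1b (rho = -0.03). Without the 2 HI pairs farthest out r was 0.92, 0.83 and 0.25, so the sign for Hspa1b turned. Among the 12 CTRL pairs r was 0.50, 0.60 and 0.25. Without the 2 CTRL pairs farthest out these fell to 0.20, 0.15 and 0.01. Under a cast, numbers with a low level of melusin or Dnajb5 in one muscle thus tended to be low in the other, and the CTRL values rest on few pairs.

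**Figure D4:**
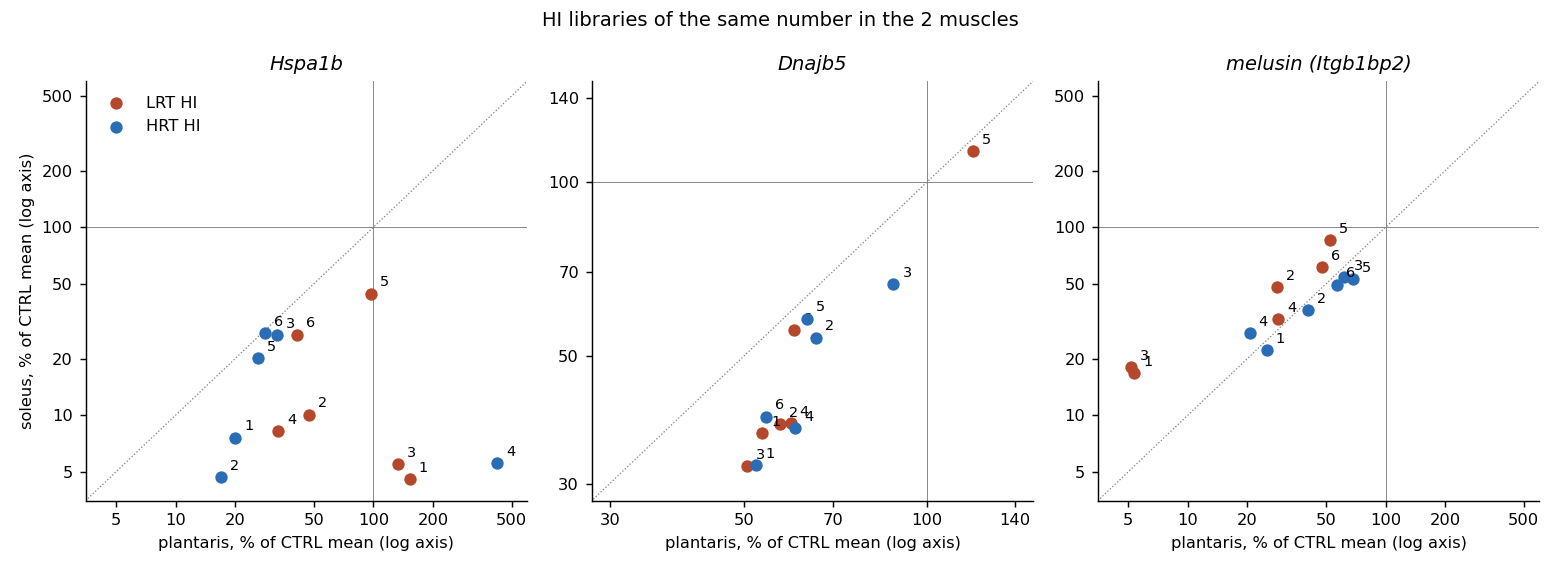
Level in the 12 pairs of HI libraries as a percent of the CTRL mean of the same muscle and line, plantaris against soleus (log axes, with a narrower range for Dnajb5), each point marked with its library number, LRT in red and HRT in blue. Melusin and Dnajb5 rise together in the muscles, and Hspa1b does not, with HRT number 4 at 422% in plantaris and 5.56% in soleus. For log2 levels with the group means removed, r of melusin and Dnajb5 is 0.95 and 0.94 over 12 pairs.

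The genes most like each member were sought by the correlation of group-centred log2 levels over 48 libraries, among the 1149 tested genes with a paired symbol. For Hspa1b they were Rcan1, an inhibitor of calcineurin (r = 0.84), Hsph1 (0.82), the actin-binding Xirp1 (0.82), Tnfrsf12a, the receptor of TWEAK (0.80), and Asb5 (0.76), which is also in the muscle gene list above. Their correlations kept the same sign in both muscles, at 0.80 to 0.84 in plantaris and 0.71 to 0.89 in soleus, unlike that of melusin with Hspa1b. The most opposed were Prkag3, a gamma subunit of the kinase AMPK in fast fibres (-0.80), and Gramd1b (-0.77).

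For Dnajb5 they were Enah, a regulator of actin filaments (r = 0.80), the MAP kinase phosphatase Dusp8 (0.75), Adprhl1 (0.74), the Z-disc protein Pdlim5 (0.74) and the non-muscle myosin Myh10 (0.73). The most opposed were the aldehyde oxidase Aox1 (-0.75) and the carboxylesterase Ces1d (-0.65). These values lean on few libraries, since without the 2 farthest the 5 highest were 0.56 to 0.69. For melusin they were Lrrc39, a protein of the sarcomeric M-band (r = 0.94), LOC100911225 (0.92), Amot (0.92), Dhrs11 (0.92) and Sdhc, a subunit of succinate dehydrogenase (0.92), and the most opposed were the amino acid transporter Slc43a2 (-0.88) and the kinetochore gene Zwint (-0.88). These likenesses are mainly those of the HI libraries. Within HI the 21 named genes had r of 0.73 to 0.96 in size, and within CTRL of 0.15 to 0.71, where Zwint (0.27 with melusin) and Pdlim5 (-0.15 with Dnajb5) had the opposite sign. Without the 2 farthest libraries the 5 highest for melusin were 0.88 to 0.92. With library totals in place of the normalization factors 5, 4 and 4 of the 5 nearest genes of Hspa1b, Dnajb5 and melusin stayed among the 5 nearest, and with the group means left in 4, 2 and 2.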

How the data were processed

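RNA from plantaris and soleus of LRT and HRT rats was analysed in 48 libraries, 6 for each muscle, line and treatment, grouped by the deposited labels. The authors quantified transcripts with Salmon 0.9.1 against Ensembl Rnor_6.0 release 91 and summed them per gene with tximport, and the deposited values are estimated counts with no normalization between libraries (65.99% of values were not whole). They were rounded here, filtered with filterByExpr (minimum count 10, 16960 genes kept) and normalized by TMM. One quasi-likelihood model of edgeR 4.0.16 with the 8 groups and RIN was fitted over all libraries (R 4.3.3), p values were adjusted over all tested genes by Benjamini-Hochberg, and intervals are at 95%. CPM use the TMM-scaled totals, and log2 CPM a prior count of 2. That prior enters the deviations, their SDs and the correlations, where the spread of low genes is understated. The fold changes come from the fitted model and do not use it. RIN was taken from the labels, whose lowest values lie below the minimum that the study's methods state. Replicates are separate rats, and of 120 pairs within groups 0 were identical.

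The members, gene lists and marker lists were chosen with earlier results of these data known. The genes named are the 3 members, 11 other chaperones (1 more gene of that list is not reported here and enters no count or median), the 5 genes of highest and 2 of lowest correlation with each member, the 4 largest changes of the Z-disc and immediate-early lists in LRT soleus and LRT plantaris, and Hdac4. Genes named for the libraries that stand apart, and Hsph1 among the promoters, were chosen after their values were seen. The study's tables pair 1149 of 31998 identifiers with a symbol, and their comparison columns were not used. Labels and methods name different kits, so the strand setting is not settled, and antisense reads cannot be told apart from a gene's own.

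The other settings were DESeq2 size factors, library totals, the DESeq2 1.42.0 Wald test, limma-voom (limma 3.58.1), no RIN, no filter, 10 counts in every library, each muscle alone, the replicate number as a block, and each library left out, which for the list genes was chosen after seeing the data. Tested on simulated data for LRT soleus (16771 genes), edgeR recovered 74.7% of genes changed by 1 and 92% of those changed by 2 on the log2 scale, with 3.49% false calls. Python 3.11.15, numpy 2.4.6, pandas 2.3.3, scipy 1.17.1 and matplotlib 3.10.9 made tables and figures.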

Additional observations from a re-analysis of the deposited data

Results flagged for a closer look

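In 5 of the 24 groups of 6 libraries examined for the 3 genes, the highest library lay farther from its neighbour in CPM than Dixon's 95% critical value allows. That value assumes normally distributed levels and CPM are skewed upward, so these libraries are listed as a description and no chance rate is given. For Hspa1b they were HRT CTRL plantaris replicate 6 at 60.2 CPM and HRT HI plantaris replicate 4 at 105.1 CPM. For Dnajb5 they were LRT HI plantaris replicate 5 at 154 CPM, LRT HI soleus replicate 5 at 162 CPM, and HRT HI plantaris replicate 3 at 114 CPM. Each of these is the highest of its group, and the number 5 of LRT HI recurs in both muscles. Melusin had none.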

How the results depend on the processing

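Of the 42 results for the members, all given without a test, 392 of 408 values under other settings of the fit and 601 of 648 with a library left out kept their sign. Those that turned were differences between the lines and DELTA values, melusin in the HRT response of plantaris minus soleus, and Hspa1b in HRT plantaris with 1 library left out. The differences between LRT and HRT lie near 0 and turned sign in places. With library totals melusin in CTRL soleus was -0.0356 and Dnajb5 in HI soleus -0.0269. With limma-voom Hspa1b in HI plantaris was 0.44 and Dnajb5 in HI soleus -0.0441. Melusin in HI plantaris moved from -0.52 to -0.86 with limma-voom, and Hspa1b in HRT plantaris HI against CTRL from -0.36 to -1.11. The cause was not tested.

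Leaving out 1 library gave, for Hspa1b, -2.04 to 0.10 in HRT plantaris HI against CTRL, -0.41 to 1.76 for DELTA in plantaris, and 0.60 to 2.68 for the HRT response of plantaris minus soleus. For LRT minus HRT it gave, in CTRL, -0.60 to 0.0114 for Hspa1b in plantaris, -0.11 to 0.0367 and -0.14 to 0.0122 for Dnajb5 in plantaris and soleus, and -0.0033 to 0.14 for melusin in soleus. In HI it gave -0.65 to 1.36 and -0.22 to 0.49 for Hspa1b in plantaris and soleus, -0.20 to 0.16 and -0.32 to 0.16 for Dnajb5, and -0.13 to 0.33 for melusin in soleus.

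Same-numbered plantaris and soleus libraries correlated over 0.1 in 22 of 24 pairs (-0.05 to 0.39), the exceptions being 2 pairs of HRT CTRL, and 22 of 24 libraries correlated best with their own number. In LRT every pair did, and the paired counts of list genes stand beside the unpaired ones. Same-numbered HI and CTRL libraries correlated over 0.1 in 0 of 24 (-0.17 to 0.07). With the number as a replicate block Hspa1b in HI plantaris, LRT minus HRT, was 0.0290 and Dnajb5 in HI soleus -0.0130, and with the number as a rat in limma-voom 0.43 and -0.0449.

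Reads shared by Hspa1b and its near-identical copy, the mixed tissue, 6 rats a group and female rats of 1 age limit what the levels can show, and RNA is not protein.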
